A study of Homo sapiens with 5 samples.

Results

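The genes described here are 37 of the 58929 in the deposited tables, chosen by a list of symbols that uses no measured value. They encode the machinery that brings secretory and membrane proteins into the endoplasmic reticulum (ER) and attaches their first sugars. By role they fall into the signal recognition particle (SRP) and its receptor (8 genes), the translocon and its associated proteins (12), signal peptidase (5) and oligosaccharyltransferase (12). All libraries come from A549 cells, an established line of human lung adenocarcinoma, in which the series asked about RBMS1, an RNA-binding protein. The groups are RBMS1 knockdown (2 libraries, named sh1088 and sh1196), its sh control (1 library), RBMS1 overexpression (1 library, named R1A) and its pCDH control (1 library). Knockdown and overexpression are both described as stable, and whether a line is a clone or a pool is not said. The design text calls the libraries ribosome footprints, while the labels give the molecule as total RNA and the protocol also describes an input of fragmented total RNA. The name "footprint" therefore comes from the design text. An RNase step of 5 min is also recorded for every library. Mean fragment length ran from 40.85 nt in the overexpression library to 52.29 nt in the pCDH control. Whether a library holds footprints or the fragmented input was not tested. The cells had been grown with serum and held in cycloheximide, which keeps ribosomes on the mRNA, and the recorded settings were the same for every library. By their names the 2 knockdown libraries carry different hairpins, with 1 library each, and whether any line was grown more than once is not told. The spread behind a p-value here therefore mixes the difference between hairpins with technical spread. No interval below covers more than counting error.

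The SRP is a ribonucleoprotein of the 7SL RNA and several proteins that binds a signal sequence as it leaves the ribosome and carries the ribosome to a receptor on the ER membrane. There the nascent chain enters the SEC61 channel, signal peptidase cuts the signal off, and oligosaccharyltransferase moves a preassembled glycan from a dolichol lipid onto asparagine side chains. Mammalian cells hold alternative forms of the transferase, one built on the catalytic subunit STT3A, which works beside the translocon, and one built on STT3B, which also glycosylates sites after translation and uses MAGT1 or TUSC3 as its oxidoreductase subunit. Several subunits of these complexes are very small membrane proteins, and lung epithelial cells, like other secretory cells, use the pathway for their surface and secreted proteins.

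The 5 members with the shortest coding sequences, of at most 300 nt, are printed because coding length is set beside the knockdown ratios below. Each is the longest annotated coding sequence of the gene (GENCODE release 29, GRCh38), 5′ to 3′, with the start and stop codons in capitals, and the coordinates are those of the whole gene. OST4 and TMEM258 are small membrane subunits of oligosaccharyltransferase, SEC61G and SEC61B are the gamma and beta chains of the channel, and SRP9 is a protein of the SRP domain that pauses elongation.
OST4 (chr2:27070472-27071773, minus strand, 37 codons before the stop): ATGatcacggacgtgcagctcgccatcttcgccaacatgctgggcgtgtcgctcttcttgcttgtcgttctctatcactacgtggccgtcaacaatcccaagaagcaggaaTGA
SEC61G (chr7:54752250-54759974, minus strand, 68 codons): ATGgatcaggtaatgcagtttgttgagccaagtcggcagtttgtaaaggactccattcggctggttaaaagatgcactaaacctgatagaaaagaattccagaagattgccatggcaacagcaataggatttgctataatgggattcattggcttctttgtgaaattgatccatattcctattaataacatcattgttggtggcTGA
TMEM258 (chr11:61768501-61792802, minus strand, 79 codons): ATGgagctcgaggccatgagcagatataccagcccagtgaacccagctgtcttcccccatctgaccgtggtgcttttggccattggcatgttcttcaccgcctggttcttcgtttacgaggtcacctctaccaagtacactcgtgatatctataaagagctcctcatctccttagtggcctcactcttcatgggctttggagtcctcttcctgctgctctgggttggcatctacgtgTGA
SRP9 (chr1:225777813-225790466, plus strand, 86 codons): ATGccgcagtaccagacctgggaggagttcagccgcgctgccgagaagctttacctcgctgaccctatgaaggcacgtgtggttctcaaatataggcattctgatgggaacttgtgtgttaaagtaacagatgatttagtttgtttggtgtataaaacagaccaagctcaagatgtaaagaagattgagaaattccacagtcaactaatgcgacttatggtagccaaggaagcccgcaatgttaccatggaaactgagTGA
SEC61B (chr9:99222064-99230615, plus strand, 96 codons): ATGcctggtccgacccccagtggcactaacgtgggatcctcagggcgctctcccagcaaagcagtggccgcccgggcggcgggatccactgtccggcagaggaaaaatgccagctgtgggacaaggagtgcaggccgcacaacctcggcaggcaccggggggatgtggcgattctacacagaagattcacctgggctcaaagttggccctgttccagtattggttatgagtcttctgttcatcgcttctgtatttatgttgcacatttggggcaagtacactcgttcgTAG
OST4 is thus translated from a reading frame of 37 codons, the shortest of all 37 members.

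Promoter windows from RefSeq (GRCh38.p14, 250 bases before to 50 after the annotated start) matched 31 of the 37 members, and those of RPN1, STT3B, SPCS1, TUSC3, SRPRA and TRAM1 are named only. They were searched on both strands for elements known from the ER stress response, in which ER genes are induced when unfolded proteins build up. The element TGACGTGG, which XBP1 and ATF6 are known to bind, lay in the windows of 4 of 31 members (12.9%), against 253 of 27305 genes (0.927%). The ER stress element lay in 0 of 31 members, against 0.0916% of genes, and its variant, the ER stress element II, in 0 of 31, against 0.0696%. CCAAT alone lay in 16 of 31 members (51.6%), against 39.7% of genes, and the cAMP response element TGACGTCA in 0 of 31, against 2.25%. The windows with TGACGTGG are printed 5′ to 3′ on the strand of the gene, and in each of them the element lies on the opposite strand, so that the capitals mark its reverse complement.
SEC62 (chr3:169966557-169966856, plus strand, element from position -17): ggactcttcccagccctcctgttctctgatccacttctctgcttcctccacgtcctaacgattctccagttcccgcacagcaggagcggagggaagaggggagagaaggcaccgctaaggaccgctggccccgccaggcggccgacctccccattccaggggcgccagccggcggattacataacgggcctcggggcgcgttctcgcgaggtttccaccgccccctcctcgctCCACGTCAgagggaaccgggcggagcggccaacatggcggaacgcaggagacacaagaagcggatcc
SRP19 (chr5:112861037-112861336, plus strand, from position -112): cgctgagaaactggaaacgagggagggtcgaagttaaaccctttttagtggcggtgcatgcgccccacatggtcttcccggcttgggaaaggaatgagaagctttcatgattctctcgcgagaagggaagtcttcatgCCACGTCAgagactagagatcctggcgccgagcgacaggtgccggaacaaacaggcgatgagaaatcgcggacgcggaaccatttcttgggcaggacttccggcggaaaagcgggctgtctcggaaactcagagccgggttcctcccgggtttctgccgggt
SSR3 (chr3:156554076-156554375, minus strand, from position -41): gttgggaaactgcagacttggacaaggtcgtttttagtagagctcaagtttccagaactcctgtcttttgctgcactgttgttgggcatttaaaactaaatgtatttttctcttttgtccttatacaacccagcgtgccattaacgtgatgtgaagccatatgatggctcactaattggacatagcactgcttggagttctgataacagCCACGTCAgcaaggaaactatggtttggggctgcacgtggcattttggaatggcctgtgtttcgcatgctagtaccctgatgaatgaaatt
SSR4 (chrX:153794418-153794717, plus strand, from position -129): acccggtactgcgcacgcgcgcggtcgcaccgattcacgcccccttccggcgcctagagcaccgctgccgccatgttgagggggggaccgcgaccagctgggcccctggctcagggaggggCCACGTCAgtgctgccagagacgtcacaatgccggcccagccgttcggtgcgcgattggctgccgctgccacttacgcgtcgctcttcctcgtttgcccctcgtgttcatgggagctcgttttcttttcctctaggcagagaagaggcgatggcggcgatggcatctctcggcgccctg
SEC62 encodes a membrane partner of SEC61, and SSR3 and SSR4 encode subunits of the translocon-associated protein complex. A match describes letters in a window and not a used site. In knockdown against the sh control the fitted log2 fold changes of these 4 genes were 0.51, 0.27, -0.18 and 0.27 in the order printed.

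The libraries held 10327747 to 13980843 expected counts. Nuclear protein-coding genes took 42.2% of them in sh1088 and 66.0% in sh1196, against 37.7% in the sh control, and 62.3% in the overexpression library, against 66.3% in the pCDH control. Of those coding counts the 37 members together took 1.12% in sh1088 and 1.05% in sh1196, against 1.08% in the sh control, and 0.912% in the overexpression library, against 1.05% in the pCDH control. RBMS1 itself, the check of the labels, stood at 18.2 CPM in sh1088 and 13.5 CPM in sh1196, against 30.7 CPM in the sh control, and at 37.2 CPM in the overexpression library, against 24.7 CPM in the pCDH control (CPM, counts normalised to the TMM-scaled library total). By the authors' TPM rescaled over nuclear protein-coding genes, RBMS1 was at 20.0 in sh1088, 13.6 in sh1196 and 14.2 in the sh control. By that measure sh1088 lay above its control. The overexpression library was then at 43.1, against 24.1 in the pCDH control. The log2 ratio of RBMS1 counts in overexpression, 0.60, became -0.051 with the GC trend described below taken out. The 8 A549 and epithelial markers summed to between 5736 and 11950 CPM. In every library ALDH1A1 was the highest of these (3500 to 8039 CPM) and EPCAM the lowest (2.58 to 16.6 CPM). Markers of alveolar type 2 cells summed to at most 0.494, of fibroblasts to at most 9.80 and of endothelium to at most 1.19. Those of immune cells summed to between 28.02 and 108.5. PTPRC and CD3E were at 0, and the immune sum came from CD68 (21.2 to 87.7 CPM) and CD14 (6.79 to 20.8 CPM). Of 25 annotated pseudogenes named after a member, 10 had any count, and the highest value was 51, for SRP14P2. Another annotated gene overlaps 9 members on the same strand (SSR1, SRP19, SRPRB, DDOST, RPN1, STT3A, OSTC, KRTCAP2 and TMEM258), and expected counts can be split there. Coding share and marker sums differed between the libraries, and their part in the results below was not tested.

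Per length of transcript RPN2, a ribophorin subunit of oligosaccharyltransferase, and its subunits KRTCAP2 and OST4 ranked between 1 and 6 of the 37 in every library. Small members did not all rank high, with SEC61G between 9 and 26 and SRP9 between 28 and 35. Levels per length are given as the authors' TPM rescaled to the same sum over nuclear protein-coding genes in each library. OST4 was the first of the 37 in sh1088 (1905) and the third in sh1196 (1089), against the first place in the sh control (4651). It was the third in the overexpression library (1007), against the sixth in the pCDH control (663). RPN2 took the first place in sh1196 (1473), the overexpression library (1142) and the pCDH control (1434). KRTCAP2, a subunit that ties the STT3A form to the translocon, held between 705 and 999 in all 5 libraries. At the low end TRAM2 was the last of the 37 in every library by this measure, with 8.64 to 14.1. That place follows the length RSEM gave TRAM2, 7047 nt in every library, for a coding sequence of 1110 nt. By CPM per kilobase of coding length, tried after these values were seen, TRAM2 ranked between 31 and 33, SEC61A2 was the last in 4 of the 5 libraries, OST4 the first in all 5, and RPN2 ranked between 6 and 15. Across libraries the CPM of a member varied least for SEC63 (highest over lowest 1.22-fold), SSR1 (1.23-fold) and SEC61A1 (1.27-fold), and most for SPCS2 (7.96-fold), OST4 (7.54-fold) and SEC61G (4.32-fold).

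**Figure D1:**
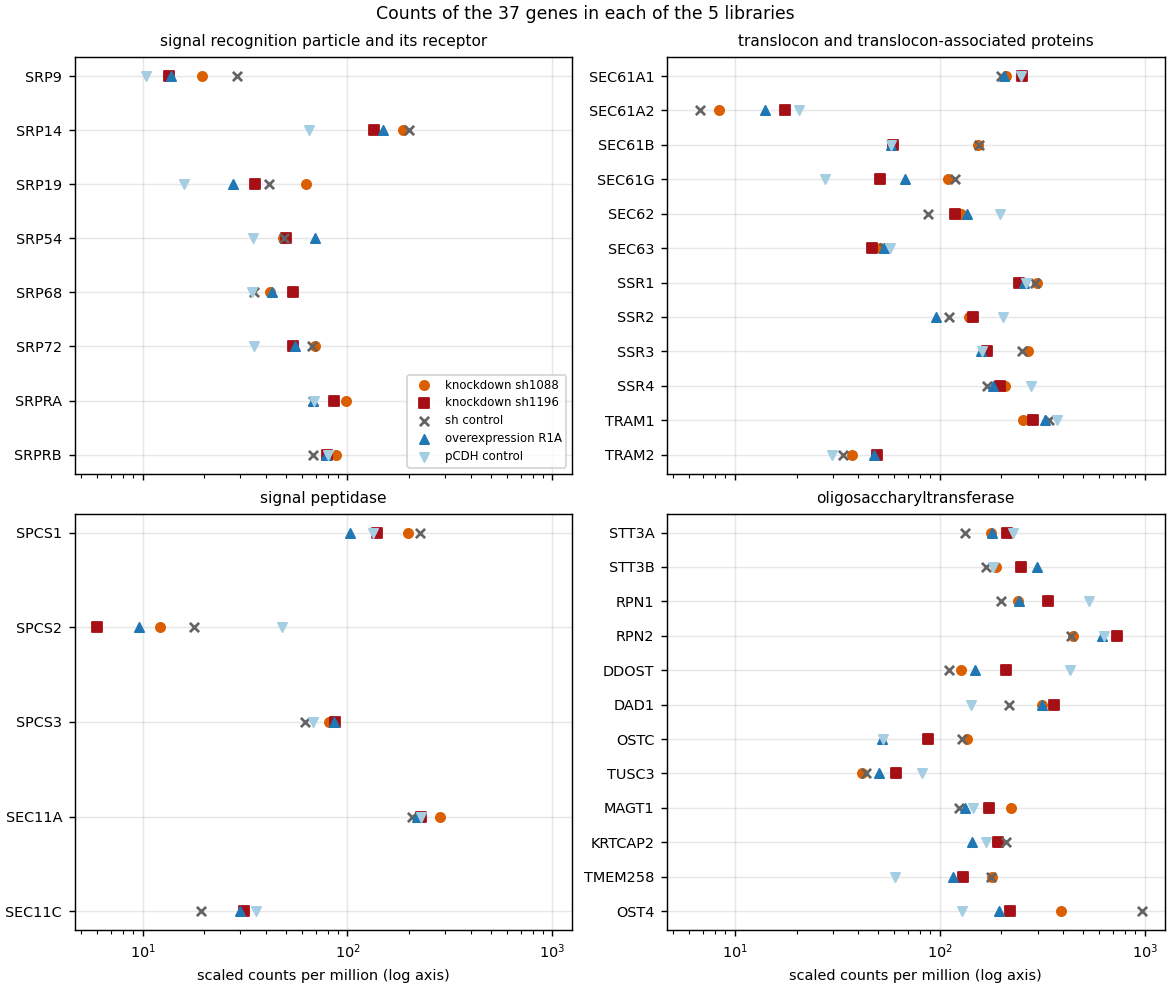
CPM (log axis) of each of the 37 genes, by role, with 1 point per library. OST4 spans 129 CPM in the pCDH control to 970.0 CPM in the sh control and SPCS2 spans 6.01 CPM in sh1196 to 47.9 CPM in the pCDH control, while SEC63 and SSR1 lie close together in all libraries.

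Knockdown was compared with the sh control to ask which genes follow a loss of RBMS1. In oligosaccharyltransferase the catalytic chains STT3A and STT3B and the subunits DDOST, RPN1 and DAD1 stood higher in both hairpin libraries, with fitted log2 fold changes of 0.58, 0.40, 0.63, 0.55 and 0.65. The control used decides part of this. Set against the pCDH control, both hairpin libraries were lower for DDOST (127 and 211 CPM, against 432), RPN1 (241 and 337, against 534) and STT3A (177 and 213, against 228). STT3B (187 and 249, against 182) and DAD1 (317 and 363, against 143) were higher against either control. The smallest subunit OST4 stood lower than the sh control in both, at 0.320 times its level, and the SRP and translocon lists had medians of 0.14 and 0.079 on the log2 scale. Every member passed the count filter, and 0 of 37 passed an edgeR adjusted p of 0.05, as did 0 of 14913 genes (0.0%). At an unadjusted p under 0.05 there was 1 member, OST4, against 876 genes (5.87%). The fitted log2 fold change was above 0 for 22 members and below 0 for 15, against 8075 and 6838 of the 14913 genes. The median of the members was 0.27, against 0.066 over all genes tested. Scaling by library size moved the median of all genes to 0.62 and that of the members to 0.81. The fit has 1 residual degree of freedom and takes the lone control to vary like the knockdown libraries. In bulk libraries like these, fewer cells with a transcript and less of it per cell cannot be told apart.

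Among the 8 SRP genes, 5 stood above 0 and 3 below, with a median of 0.14. SRP9, which with SRP14 forms the domain that slows elongation, had 19.5 CPM in sh1088 and 13.4 CPM in sh1196, against 29 CPM in the sh control. It was lower than the sh control in both hairpin libraries, at -0.80 on the log2 scale (SE 0.46, edgeR adjusted p = 0.828). Against the pCDH control SRP9 was higher in both, at 0.91 for sh1088 and 0.37 for sh1196. Its partner SRP14 had 188 CPM in sh1088 and 135 CPM in sh1196, against 200.4 CPM in the sh control, and only sh1196 lay well below the control. SRP54, the GTPase that reads the signal sequence, had 48.4 CPM in sh1088 and 49.9 CPM in sh1196, against 49.2 CPM in the sh control, nearly level. SRP19, which helps assemble the particle, had 63 CPM in sh1088 and 35.4 CPM in sh1196, against 41.5 CPM in the sh control, and so lay on opposite sides of the control in the hairpin libraries. The receptor chains stood above the control in both, SRPRA at 0.57 and 0.36 and SRPRB at 0.41 and 0.25 on the log2 scale for sh1088 and sh1196. The large proteins of the particle, SRP68 and SRP72, were fitted at 0.48 and -0.094.

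Among the 12 translocon genes 6 stood above 0 and 6 below, with a median of 0.079. SEC61A1, the pore-forming chain of the channel, had 211 CPM in sh1088 and 253 CPM in sh1196, against 199 CPM in the sh control, a fitted log2 fold change of 0.24 (SE 0.52). Its paralog SEC61A2 had 8.39 CPM in sh1088 and 17.5 CPM in sh1196, against 6.79 CPM in the sh control, and was the highest of all members at 0.95 (SE 0.62, edgeR adjusted p = 0.828), made up of 0.34 for sh1088 and 1.39 for sh1196. Against the pCDH control SEC61A2 was lower in both, at -1.30 for sh1088 and -0.24 for sh1196. Set against the sh control, the small chains went the other way from the alpha chains in 1 library. SEC61G had 110.0 CPM in sh1088 and 51.3 CPM in sh1196, against 119 CPM in the sh control. SEC61B had 153 CPM in sh1088 and 58.8 CPM in sh1196, against 156 CPM in the sh control. For both the sh1088 value lay beside the control and the sh1196 value far below it, and the fits gave -0.54 (SE 0.57) and -0.53 (SE 0.64). Against the pCDH control SEC61G was higher in both hairpin libraries (1.995 and 0.89 on the log2 scale), and SEC61B was at 1.40 and 0.025. SEC62 and SEC63, which help poorly hydrophobic signals through the channel, were at 0.51 and -0.11. The translocon-associated proteins SSR1, SSR2, SSR3 and SSR4 were at -0.082, 0.38, -0.18 and 0.27. TRAM1, a membrane protein that assists some signals, had 254 CPM in sh1088 and 285 CPM in sh1196, against 343 CPM in the sh control, lower in both hairpin libraries (-0.33, SE 0.51), while TRAM2, its paralog, was at 0.38. With library size scaling TRAM1 stood at 0.23, below the median of all genes under that scaling.

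Signal peptidase has a catalytic chain, SEC11A or its paralog SEC11C, and the noncatalytic chains SPCS1, SPCS2 and SPCS3. Of the 5 genes 3 stood above 0 and 2 below (median 0.33). SEC11C had 31 CPM in sh1088 and 31.2 CPM in sh1196, against 19.3 CPM in the sh control. SEC11A had 282 CPM in sh1088 and 229 CPM in sh1196, against 206 CPM in the sh control. Both catalytic chains thus lay above the sh control in both hairpin libraries, with fitted values of 0.71 (SE 0.45) and 0.33 (SE 0.53). Against the pCDH control SEC11C was lower in both, at -0.21 for sh1088 and -0.20 for sh1196 on the log2 scale, and SEC11A was at 0.30 and 0.0010. SPCS3, whose yeast counterpart is needed for activity, was at 0.45. SPCS2 had 12.2 CPM in sh1088 and 6.01 CPM in sh1196, against 17.9 CPM in the sh control. SPCS1 had 197 CPM in sh1088 and 139 CPM in sh1196, against 227 CPM in the sh control. Both were lower than the sh control in both hairpin libraries and more so in sh1196, with fitted values of -0.95 (SE 0.57) and -0.41 (SE 0.52). Against the pCDH control SPCS2 stayed lower in both (-1.97 and -2.99), while SPCS1 was higher (0.57 and 0.061). With library size scaling SPCS1 stood at 0.082, again below the median of all genes.

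Of the 12 oligosaccharyltransferase genes, 8 stood above 0 and 4 below, with a median of 0.43, made up of 0.16 in sh1088 and 0.56 in sh1196. The catalytic subunit STT3A had 177 CPM in sh1088 and 213 CPM in sh1196, against 132 CPM in the sh control. STT3B had 187 CPM in sh1088 and 249 CPM in sh1196, against 167 CPM in the sh control. Their fitted log2 fold changes were 0.58 (SE 0.51) and 0.40 (SE 0.52). Both thus lay above the control in both hairpin libraries, with sh1196 highest, and the same order held for the ribophorins and DDOST. RPN1 had 241 CPM in sh1088 and 337 CPM in sh1196, against 199 CPM in the sh control. RPN2 had 448 CPM in sh1088 and 734 CPM in sh1196, against 435 CPM in the sh control. DDOST, a noncatalytic membrane subunit, had 127 CPM in sh1088 and 211 CPM in sh1196, against 110.4 CPM in the sh control (0.63, SE 0.55). The small subunits were not alike. DAD1, first known as a defender against cell death, had 317 CPM in sh1088 and 363 CPM in sh1196, against 218 CPM in the sh control (0.65, SE 0.54). MAGT1, an oxidoreductase subunit of the STT3B form, had 222 CPM in sh1088 and 174 CPM in sh1196, against 124 CPM in the sh control (0.69, SE 0.52), and was higher in sh1088 than in sh1196. Its alternative TUSC3 had 42 CPM in sh1088 and 61.1 CPM in sh1196, against 43.7 CPM in the sh control, and only sh1196 exceeded the control. KRTCAP2, OSTC and TMEM258 were at -0.11, -0.17 and -0.17.

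OST4, which in yeast stabilises the complex around its catalytic chain, stood apart from the other subunits. It had 391 CPM in sh1088 and 220.4 CPM in sh1196, against 970.0 CPM in the sh control, the widest gap of any member. The fit gave -1.64 on the log2 scale (SE 0.58, edgeR unadjusted p = 0.0224, adjusted p = 0.828), and the hairpins alone -1.28 for sh1088 and -2.11 for sh1196. The sh control was the library that stood out, however, since OST4 was at 195 CPM in the overexpression library and 129 CPM in the pCDH control, both below the knockdown libraries. Set against the pCDH control, both hairpin libraries would lie above and not below it. Per length the same order held, with rescaled TPM of 1905 and 1089, against 4651 in the sh control.

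Coding length, examined after these values were seen, moved with the ratios of sh1196. Over nuclear protein-coding genes of at most 300 nt the median log2 ratio was -1.08 in sh1196 and -0.39 in sh1088 (190 and 189 genes), and over the 5 members of that length it was -1.19 and -0.081. Spearman's rho of the sh1196 ratio with coding length was 0.38 across 10041 coding genes and 0.56 across the members, and for sh1088 it was 0.094 and 0.26. Genes within a library share its depth and fragment length and are not independent replicates. With the trend on coding length taken out, OST4 stood at -0.67 in sh1088 and -0.47 in sh1196. SRP9 was then at -0.20 and -0.086, with a mean of -0.15, against -0.80 in the fit. SPCS2, which is not short at 681 nt, remained at -0.47 and -1.29. SEC61G was then at 0.33 and -0.0096, so that its mean turned to 0.16. The other short members were at 0.31 and -0.46 (SEC61B) and at 0.42 and 0.65 (TMEM258). DAD1, short at 339 nt but higher in both libraries, was then at 0.82 and 1.55. The median of all members was 0.30 with the trend out.

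**Figure D2:**
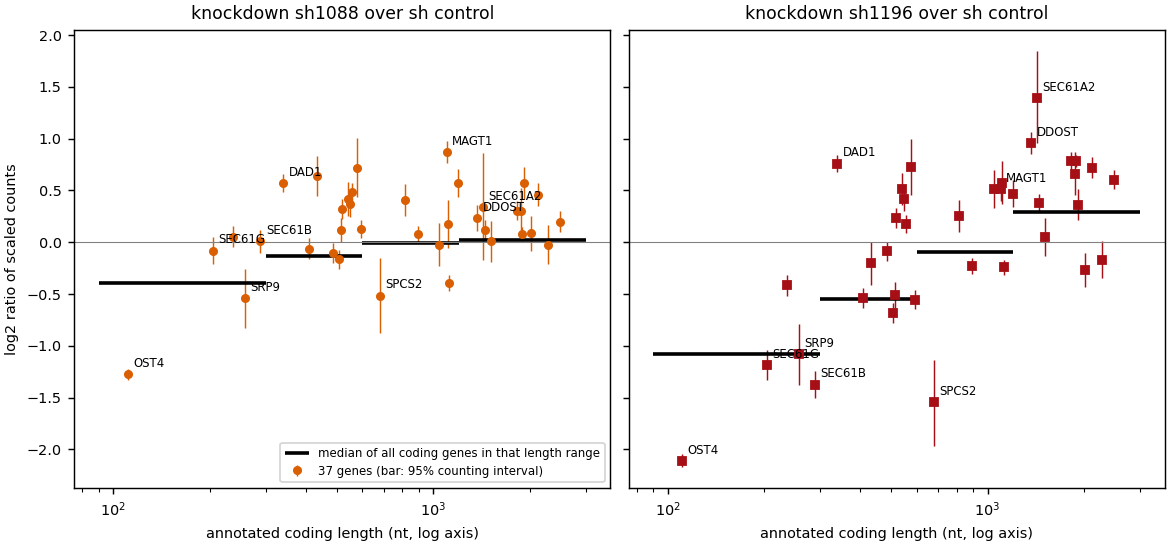
Log2 ratio of each of the 37 genes in sh1088 (left) and sh1196 (right) over the sh control against annotated coding length (log axis), with 95% counting intervals, and the median of all coding genes in 4 length ranges as black lines. In sh1196 the black lines climb from -1.08 for the shortest genes to 0.29 for the longest. OST4, SEC61G, SRP9 and SEC61B lie near or below the line of the shortest range. TMEM258, also in that range, lies above its line at -0.42, and DAD1 lies well above the line of its own range.

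Overexpression was compared with the pCDH control to ask which genes follow a gain of RBMS1. SEC61G, SRP14, DAD1 and SRP54 stood at least 2-fold higher in the overexpression library, and SPCS2, DDOST, RPN1 and SSR2 stood at least 2-fold lower. With the overexpression library set against the sh control, 4 of these 8 lay on the other side of 0: SEC61G (-0.83) and SRP14 (-0.44) were lower, and DDOST (0.41) and RPN1 (0.26) higher. DAD1 (0.51), SRP54 (0.48), SPCS2 (-0.91) and SSR2 (-0.22) kept their side. With 1 library per group there is no replicate check and no p-value, and the intervals are 95% counting intervals. All 37 members had a mean CPM of at least 5. At least 2-fold higher were 4 of them, against 15.3% of 10841 genes, and at least 2-fold lower were 4, against 13.7%. As a share of the 37 members, neither count exceeds the background. The median log2 ratio of the members was -0.023, against 0.076 over all genes, and stayed below 0 with library size scaling, rescaled TPM and the authors' TPM. It turned to 0.033 with the sh control swapped in. Intervals lay above 0 for 13 members and below 0 for 15, against 4654 and 3995 of the 10841 genes.

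The SRP list had a median log2 ratio of 0.55, and 6 of its 8 genes had an interval above 0, against 4654 of 10841 genes. SRP14 had 149.8 CPM in the overexpression library, against 64.7 CPM in the pCDH control, a log2 ratio of 1.22 (1.11 to 1.33). SRP54 had 69.8 CPM in the overexpression library, against 34.5 CPM in the pCDH control, a ratio of 1.02 (0.87 to 1.18). SRP19, SRP72, SRP9 and SRP68 were at 0.80, 0.68, 0.41 and 0.34, while the receptor chains SRPRA and SRPRB lay at -0.0079 and -0.023 with intervals across 0. The median of the list stayed positive with library size scaling (0.39) and rescaled TPM (0.27), and was negative by the authors' TPM (-0.44, where all genes had -0.71) and with the sh control (-0.15). With the GC trend described below taken out it was 0.17, with 5 genes above 0 and 3 below, and SRP9 (-0.27) and SRP72 (-0.05) lay below 0.

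For the particle's RNA the deposited tables list RN7SL1, RN7SL2 and RN7SL3, near-identical copies among which counts cannot be split with certainty, so they were summed. The 7SL sum was 93.6 CPM in sh1088 and 26.2 CPM in sh1196, against 458 CPM in the sh control. In the other arm it was 19.2 CPM in the overexpression library, against 323 CPM in the pCDH control. The RNA, which is not translated, was thus high in both controls and low in the knockdown and overexpression libraries alike.

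Among translocon genes SEC61G had 67.8 CPM in the overexpression library, against 27.6 CPM in the pCDH control, the highest ratio of any member at 1.31 (1.14 to 1.47). SEC61B, its partner chain, was level at 58.1 CPM in the overexpression library, against 57.8 CPM in the pCDH control (0.017, -0.12 to 0.16). SEC61A1 had 206 CPM in the overexpression library, against 248 CPM in the pCDH control. SEC61A2 had 14.1 CPM in the overexpression library, against 20.6 CPM in the pCDH control. Both alpha chains were lower, with ratios of -0.26 and -0.54. With the sh control swapped in they were at 0.033 and 1.03. SSR2 had 96.3 CPM in the overexpression library, against 204 CPM in the pCDH control (-1.07, -1.17 to -0.98). SSR4 had 183 CPM in the overexpression library, against 278 CPM in the pCDH control (-0.60, -0.67 to -0.52), while SSR1 and SSR3 lay at -0.02 and 0.0038. The subunits of the translocon-associated complex were thus unequal in this pair of libraries. TRAM1 was at -0.20 and TRAM2 at 0.68, and SEC62 and SEC63 at -0.53 and -0.082. The list median was -0.14, with 4 genes above 0 and 8 below, and lay below 0 under each scaling run and with the sh control (-0.057).

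In signal peptidase SPCS2 had 9.66 CPM in the overexpression library, against 47.9 CPM in the pCDH control, the lowest ratio of any member at -2.30 (-2.60 to -2.02). It had 114 counts in the overexpression library, against 836 in the pCDH control, and was at 12.2 CPM or less in the knockdown libraries too, so that the pCDH control was the library that stood out. SEC11A and SEC11C were at -0.061 and -0.26, SPCS1 at -0.37 and SPCS3 at 0.35. The list median was -0.26, and 0.059 with the sh control.

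Oligosaccharyltransferase was split. DAD1 had 314 CPM in the overexpression library, against 143 CPM in the pCDH control, a ratio of 1.15 (1.08 to 1.22). TMEM258 had 115 CPM in the overexpression library, against 60.2 CPM in the pCDH control (0.95, 0.83 to 1.07). STT3B had 299.6 CPM in the overexpression library, against 182 CPM in the pCDH control (0.73, 0.66 to 0.79). OST4 was at 0.61 (0.52 to 0.69). On the lower side DDOST had 149 CPM in the overexpression library, against 432 CPM in the pCDH control, a ratio of -1.53 (-1.60 to -1.45). RPN1 had 243 CPM in the overexpression library, against 534 CPM in the pCDH control (-1.13, -1.19 to -1.07). TUSC3 had 50.3 CPM in the overexpression library, against 82 CPM in the pCDH control (-0.69, -0.83 to -0.56). STT3A was at -0.33 (-0.41 to -0.26), on the other side of 0 from STT3B. With the sh control swapped in, both lay above 0, STT3A at 0.43 and STT3B at 0.82. TMEM258 (-0.64) and OST4 (-2.335) then lay below 0, and DDOST (0.41), RPN1 (0.26) and TUSC3 (0.18) above it. DAD1 kept its side (0.51). RPN2 and OSTC were level at -0.024 and -0.0015, MAGT1 was at -0.12 and KRTCAP2 at -0.21. The 12 genes thus ranged from -1.53 to 1.15, with a median of -0.072, and of 0.22 with the sh control.

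Over coding genes the overexpression ratio declined as transcript GC content went up (Spearman's rho -0.59 across 10320 genes, which share both libraries), and weakly over the members (-0.16). With that trend taken out the median of the members was -0.27. SEC61G then stood at 0.65, SRP54 at 0.40 and STT3B at 0.28, while SRP14 (1.07), DAD1 (0.90), SPCS2 (-2.90), DDOST (-1.33), RPN1 (-1.08) and SSR2 (-1.14) kept their side of 0. Over the 5 members of at most 300 nt the median ratio was 0.61, against 0.18 over 186 coding genes of that length. SSR4, the richest in GC of the members at 60.3%, turned to 0.07.

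**Figure D3:**
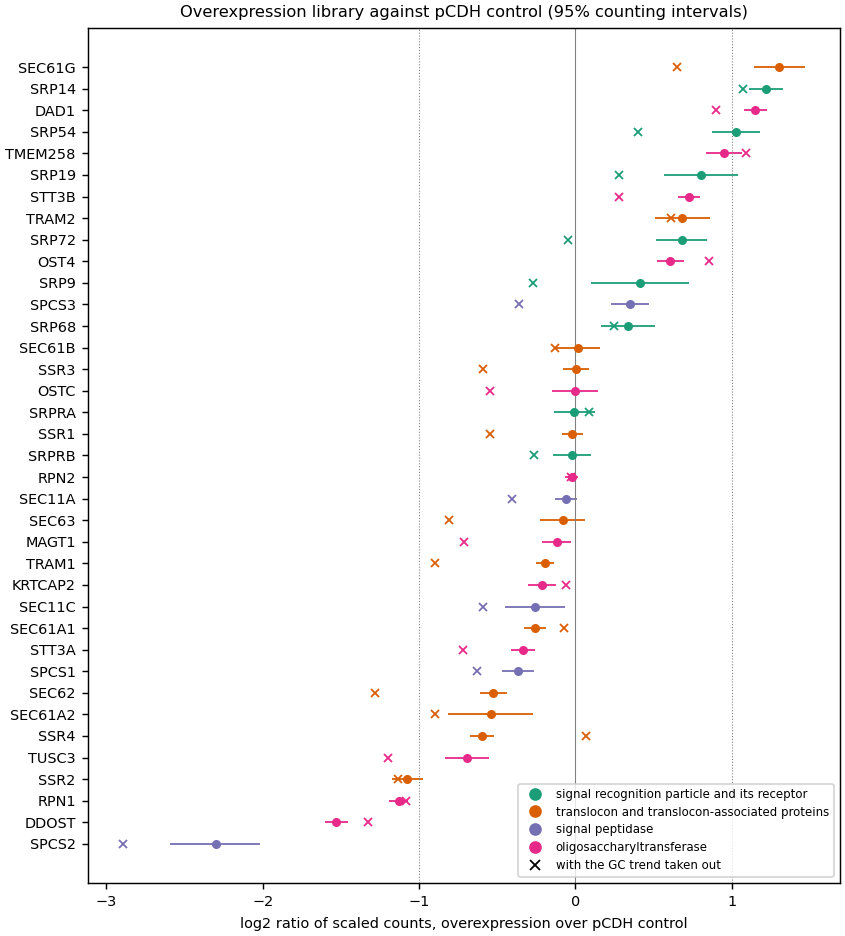
Log2 ratio of overexpression over pCDH control for each of the 37 genes, ordered from highest to lowest and coloured by role, with 95% counting intervals. Crosses give the ratio with the GC trend taken out, and dotted lines mark a 2-fold difference. SEC61G, SRP14, DAD1 and SRP54 lie past the upper line and SPCS2, DDOST, RPN1 and SSR2 past the lower one.

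Over all 5 libraries, with the RBMS1 level coded as -1, 0 and 1 for knockdown, control and overexpression and a term for the vector system, 0 of 37 members passed an edgeR adjusted p of 0.05, against 1 of 15827 genes (0.00632%). At an unadjusted p under 0.05 there were 2 members, OST4 and DDOST, against 6.61% of genes. OST4 stood at 1.23 per level (SE 0.46, edgeR adjusted p = 0.729) and DDOST at -0.99 (SE 0.45, edgeR adjusted p = 0.729). The values that make up this slope are those above: OST4 lower in both hairpin libraries and higher with overexpression, and DDOST the reverse, each against its own control. Both rest on 1 control library. DDOST had 149 CPM in the overexpression library, between the knockdown libraries (127 and 211 CPM) and above the sh control (110.4 CPM), and only the pCDH control (432 CPM) lay above all 4. OST4 was lower in the overexpression library than in either knockdown library, and its sh control lay above all others. The median slope of the members was -0.017, against 0.018 over all genes.

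Paralogs that fill the same place in a complex were compared per length, as the ratio of deposited TPM within a library, which no scaling between libraries can change. SEC61A1 over SEC61A2 was 7 in sh1088 and 5.86 in sh1196, against 12 in the sh control, and 6.17 in the overexpression library, against 4.13 in the pCDH control. SEC61A1 was the main alpha chain in all 5 libraries. SEC11A over SEC11C was 7.92 in sh1088 and 6.42 in sh1196, against 8.97 in the sh control, and 6.08 in the overexpression library, against 4.85 in the pCDH control, so that SEC11A was the main catalytic chain of signal peptidase throughout. STT3A over STT3B was 1.71 in sh1088 and 1.20 in sh1196, against 1.72 in the sh control, and 1.27 in the overexpression library, against 3.16 in the pCDH control. The transcript length that RSEM gave STT3A varied from 903 to 1794 nt between libraries, and it enters the TPM. MAGT1 over TUSC3 was 3.10 in sh1088 and 2.17 in sh1196, against 1.46 in the sh control, and 1.84 in the overexpression library, against 1.84 in the pCDH control, so both oxidoreductase subunits were present with more MAGT1. TRAM1 over TRAM2 was 53.3 in sh1088 and 44.3 in sh1196, against 69.3 in the sh control, and 49.8 in the overexpression library, against 99.8 in the pCDH control. The TRAM ratio is set largely by length, since RSEM gave TRAM2 7047 nt and TRAM1 at most 1064 nt, while their coding sequences are close in length at 1110 and 1122 nt. By counts per kilobase of coding length, tried after these values were seen, TRAM1 over TRAM2 was 5.69 to 12.4, STT3A over STT3B 0.703 to 1.47, SEC61A1 over SEC61A2 11.9 to 28.9, SEC11A over SEC11C 6.64 to 11.1 and MAGT1 over TUSC3 1.67 to 5.02. By that measure STT3A and STT3B lay on either side of 1. By TPM, in the hairpin arm the sh control held the largest ratio for the SEC61A, SEC11 and TRAM pairs, and the smallest for MAGT1 over TUSC3. No test was run on these ratios, and with 1 control library the spread of a control is not known.

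**Figure D4:**
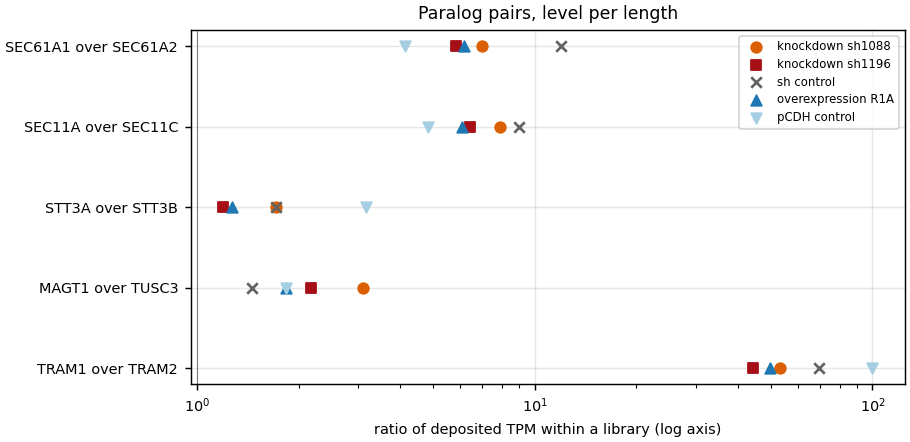
Ratio of deposited TPM of the paralogs in each pair (log axis), with 1 point per library. By TPM the ratio is above 1 for every pair in every library, lowest for STT3A over STT3B in sh1196 (1.20) and highest for TRAM1 over TRAM2 in the pCDH control (99.8). The TRAM ratio carries the length of 7047 nt that RSEM gave TRAM2, and by counts per kilobase of coding length it is 5.69 to 12.4, while STT3A over STT3B is 0.703 to 1.47.

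The steps before and after the machinery were described from lists of other genes, of which 0 passed an edgeR adjusted p of 0.05 in knockdown. Of all 14913 genes tested, 8075 stood above 0, with a median log2 fold change of 0.066. The BiP system, made of the luminal chaperone that pulls chains through the channel and its cofactors, had 7 of 8 genes above 0 and a median log2 fold change of 0.96. HSPA5, which encodes BiP, had 4466 CPM in sh1088 and 4194 CPM in sh1196, against 1121 CPM in the sh control (1.97, SE 0.79, edgeR adjusted p = 0.828). SIL1, its nucleotide exchange factor, had 37.1 CPM in sh1088 and 49.1 CPM in sh1196, against 13.6 CPM in the sh control (1.68, SE 0.49), and HYOU1, another such factor, was at 1.14. Trimming of the new glycan and the calnexin cycle, which folds glycoproteins, had 10 of 13 above 0 and a median of 0.79. CALR, the luminal lectin of that cycle, had 747 CPM in sh1088 and 972 CPM in sh1196, against 307 CPM in the sh control (1.32 and 1.69 on the log2 scale), PDIA3, its disulphide isomerase, was at 1.20, and UGGT2, related to the sensor of misfolded glycoproteins, at 1.27. The enzymes that build the dolichol-linked glycan, the substrate of the transferase, had 20 of 28 above 0 and a median of 0.33, with ALG12 at 1.06, ALG1 at 0.91 and MPDU1 at 0.79.

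The ER membrane complex and the tail-anchor pathway, other routes into the membrane, had 12 of 17 above 0 (median 0.36). EMC6, a small subunit, had 32.1 CPM in sh1088 and 18.9 CPM in sh1196, against 82.1 CPM in the sh control (-1.67, SE 0.48), opposite to EMC3 at 0.83 and EMC1 at 0.97. It had 23.1 CPM in the pCDH control and 22.7 CPM in the overexpression library, so that the sh control was the library that stood out. EMC6 is short at 330 nt of coding sequence, and with the coding length trend out it was at -1.06 in sh1088 and -1.28 in sh1196. Partners of SEC61 for multipass proteins had 6 of 7 above 0 (median 0.56), with NCLN at 1.06. NOMO1 and NOMO2, at 1.35 and 2.52, are near-identical copies whose counts cannot be split with certainty. GPI transamidase, which replaces a signal at the other end of a protein with a lipid anchor, had 4 of 5 above 0. Its median was 0.039, and -0.078 with the coding length trend out, with PIGU at 0.76, GPAA1 at 0.38 and PIGT at 0.039. Only 1 of the 5 was higher in both hairpin libraries. Medians for sh1088 and sh1196 were 0.97 and 0.89 in the BiP system and 0.34 and 1.16 in the calnexin cycle. They were 0.097 and 0.40 for the dolichol enzymes and 0.29 and 0.50 for the ER membrane complex list. For the multipass partners they were 0.37 and 0.75, for GPI transamidase -0.15 and 0.25, and over all genes 0.011 and 0.076. Where knockdown was compared with pCDH and not with its own control, the median over 14723 genes was 0.097. Medians then stayed positive, and close to that value, for the BiP system (0.15) and the dolichol enzymes (0.12). They turned negative for the calnexin cycle (-0.49), the ER membrane complex list (-0.18), the multipass partners (-0.33), GPI transamidase (-0.73) and, among the 4 roles of the members, the translocon (-0.15).

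In the overexpression library the same lists had medians of -0.56 (BiP system), -0.54 (calnexin cycle), -0.019 (dolichol enzymes), -0.30 (ER membrane complex and tail anchors), -0.16 (multipass partners) and -0.80 (GPI transamidase), against 0.076 over all genes. CALR had 399 CPM in the overexpression library, against 2051 CPM in the pCDH control, a log2 ratio of -2.35 (-2.40 to -2.31). HSPA5 had 614 CPM in the overexpression library, against 786 CPM in the pCDH control (-0.35, -0.39 to -0.31). With the sh control swapped in the medians turned positive for the calnexin cycle (0.66), the dolichol enzymes (0.18), the ER membrane complex list (0.32), the multipass partners (0.91) and GPI transamidase (0.28), and stayed negative for the BiP system (-0.30). With rescaled TPM the multipass median was 0.16, and with the GC trend out the ER membrane complex median was 0.16. Of the 6 lists, 5 thus changed sign with the control.

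The authors' deposited table for knockdown has an adjusted p under 0.05 for 0 members on the higher side and 1 on the lower, against 1.69% and 1.77% of 15560 genes. The member is OST4, with a log2 fold change of -1.65 and an adjusted p of 0.000203 in the authors' deposited table. In the authors' deposited table for overexpression 8 members are higher and 5 lower at that threshold, against 13.7% and 11.7% of 17714 genes. The higher ones there are DAD1, OST4, SEC61G, SRP14, SRP19, SRP54, TMEM258 and TRAM2, and the lower ones DDOST, RPN1, SPCS2, SSR2 and SSR4. With 1 library in each of these groups, how the p-values of the authors' deposited table were made is not given in the sources used here. In the authors' deposited table for overexpression the fold changes of members differ from the plain count ratio by unequal amounts, 0.26 to 1.39, where scaling alone would give the same amount for each gene.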

How the data were processed

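The members and the gene lists were chosen with earlier results of these data known, although the rule for the members uses symbols alone. Per the submitters' processing notes the tools include STAR 2.4.2, RSEM 1.3.1, Bowtie and DESeq2. A genome build is not given in the sources used here. Per the file headers, the authors deposited RSEM expected counts, TPM and FPKM per gene. Their comparison tables hold the mean normalised count, a signal, and log2 fold changes, p-values and adjusted p-values, per the file headers. No column of another series was found.

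Of 58929 identifiers, 58656 matched GENCODE release 29, which gave coordinates, GC content and coding length. Expected counts were rounded. Knockdown and the RBMS1 level were tested with edgeR 4.0.16 in R 4.3.3 (robust quasi-likelihood test after TMM and filterByExpr, Benjamini-Hochberg over all genes, 0.05), with SE from the F statistic. Overexpression ratios use TMM-scaled counts with exact conditional 95% counting intervals over genes with mean CPM of at least 5. TPM ratios use log2(TPM + 1). CPM use the scaling of all 5 libraries, and each fit its own. GC and coding length trends are lowess fits (span 0.3, statsmodels 0.14.6). On simulated data the knockdown test (14257 genes) called 0.949% of genes changed 2-fold, 23.3% changed 4-fold and 65.2% changed 8-fold, with 24 false calls in 5 simulations, and the level fit (15258 genes) 1.36%, 42.9% and 79.7%.

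Genes named are the paralog pairs, the 6 highest and 6 lowest members in knockdown (same sign in both hairpin libraries, mean CPM of at least 5), the 6 highest and 6 lowest in overexpression by the interval bound nearest to 0, and up to 3 genes of each other list by the smallest knockdown p. Other members are given by role. Alternatives were DESeq2 1.42.0, other scalings and units, no filter, the other control, left-out libraries, trends taken out and, added after seeing the data, coding length.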

Additional observations from a re-analysis of the deposited data

How the results depend on the processing

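Members called stayed at 0 in knockdown and along the RBMS1 level under each alternative run. The genes called in knockdown (0) became 15 with DESeq2, 27 with library size scaling, 102 with no count filter and 93 with the pCDH control. Those along the level (1) became 54 with DESeq2, 36 with library size scaling, 89 with no filter, and 30 to 136 with a hairpin library left out. The knockdown median of the members (0.27) was 0.81 with library size scaling (all genes 0.62) and 1.37 by the authors' TPM (all genes 0.78). It was 0.37 by rescaled TPM (all genes 0.15) and 0.13 to 0.24 with a hairpin library left out (all genes 0.0046 to 0.066). With DESeq2 it was 0.25 (all genes 0.21) and with no count filter 0.28 (all genes 0.23). In those 2 settings all genes include those of low count, and the members lay close to them. In overexpression 8 of 37 members differed at least 2-fold, against 28.9% of all genes. By the authors' TPM 17 of 37 did, all lower, against 40.2% of all genes, whose median was then -0.71. The overexpression median (-0.023) was -0.18 with library size scaling, -0.83 by the authors' TPM, -0.13 by rescaled TPM, -0.27 with the GC trend out and 0.033 with the sh control. Among single genes SEC61G in knockdown turned to 0.16 with the coding length trend out, SPCS1 and TRAM1 to 0.082 and 0.23 with library size scaling, and SSR4 in overexpression to 0.070 with the GC trend out. The cause of these shifts was not tested. By counts per kilobase of coding length, chosen after seeing the data, the median paralog ratios were 14.5 for SEC61A1 over SEC61A2 (6.17 by TPM), 7.62 for SEC11A over SEC11C (6.42), 1.002 for STT3A over STT3B (1.71), 2.70 for MAGT1 over TUSC3 (1.84) and 6.75 for TRAM1 over TRAM2 (53.3), since the lengths differ. No paired analysis was possible because the labels give no replicate number that ties a library of one group to a library of another. With a hairpin library left out, knockdown is 1 library against 1, so no count of calls was made.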
